A study of Mus musculus with 2 samples.

Results

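Non-classical monocytes of the lung were followed in 2 single-cell libraries, and 113 such cells were found among the 15695 droplets that passed the study's filters. They were chosen on measured RNA: a droplet was taken when its unique molecular identifiers (UMIs, each of which stands for 1 captured RNA molecule) of Treml4, Ace, Cd300e and Adgre4 summed to at least 2, with at least 1 of them outside Ace. Droplets with more than 1 UMI summed over the alveolar macrophage genes Ear1, Plet1 and Atp6v0d2 were dropped, as were droplets with any UMI of the 5 lineage genes Cdh5, Cd79a, Cd3e, Epcam and Col1a2. The libraries held RNA of whole lungs from female BALB/c mice aged 9 to 10 weeks. Mice of the CM group had received control media into the vein for 3 weeks, and mice of the TCM group had received media conditioned by cultured 4T1 primary breast tumors, without serum, over the same time, which stands in for the factors a primary tumor sheds. Each group was 1 library, and the number of mice pooled into it was not stated, so no test across groups was possible and no p-value is given.

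Classical monocytes carry Ly6C and the chemokine receptor CCR2, leave the bone marrow and enter tissues. Non-classical monocytes arise from them under the transcription factor NR4A1, lose Ly6C and CCR2, and stay in the blood vessels, where they crawl along the endothelium with the integrin LFA-1 and take up debris. The lung is rich in such patrolling cells because of its dense capillary bed, and in mice they have been studied for clearing tumor material from lung vessels.

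The CM library held 63 of the cells with 208168 UMIs in all, and the TCM library 50 with 176544 UMIs. A cell had a median of 2831 UMIs in CM (515 to 7792) and 2971 in TCM (625 to 13049), so the depth per cell was alike. No barcode was shared between the cells of both libraries, while 93 barcodes occurred among the passing droplets of both. Levels below are UMIs per 100000 UMIs of the cells (CP100k), summed over the cells of a library. Ratios are log2 of TCM over CM with a 95% interval from the exact binomial distribution of the 2 sums, which covers counting error only and not the difference between animals or libraries.

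The 4 genes that chose the cells are given as a description. Treml4, a receptor of the TREM family, had 98 UMIs in 44 of 63 CM cells and 62 in 33 of 50 TCM cells. Ace, which encodes angiotensin-converting enzyme, had 132 UMIs in 51 and 105 in 37 cells. Cd300e had 34 UMIs in 24 and 20 in 15 cells, and Adgre4, an adhesion receptor of the F4/80 family, had 77 UMIs in 48 and 47 in 30 cells. All 4 were found together in 9 CM and 4 TCM cells, and a single one of them in 4 and 7 cells. Ace alone would not have marked these cells in lung: 1600 CM and 1652 TCM droplets had a marker sum of at least 2, and 104 and 83 remained once a UMI outside Ace was asked for. The alveolar macrophage genes then removed 8 and 9 droplets and the lineage genes 33 and 24, of which 23 and 18 carried the endothelial gene Cdh5.

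The threshold cut through a range of marker sums. In CM, 9 cells sat at a marker sum of exactly 2, 15 at exactly 3 and 39 higher. In TCM the numbers were 12, 7 and 31. Just outside, 36 CM and 65 TCM droplets had a single UMI of Treml4, Cd300e or Adgre4, no other marker UMI, and met the other conditions. Gngt2, a G protein subunit, stood at 28.2 CP100k just outside, 58.6 at a sum of 2 and 133 above it in CM, and at 17.8, 32.6 and 119 in TCM. Not every gene rose in step. In CM, Nr4a1 stood at 53.8, 138 and 111 and Cx3cr1 at 20.5, 8.37 and 28.8. In TCM they stood at 43.7, 47.1 and 105 and at 4.85, 9.05 and 26.4. Spn, the sialophorin CD43 that is high on non-classical monocytes, had 0 UMIs in the 12 TCM cells at a sum of 2 and in the 65 droplets outside. The TCM cells thus held more cells at the edge of the rule, and values with a marker sum of at least 3 (54 CM and 38 TCM cells) are given below where they change a named result.

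The label was checked against 24 further genes of non-classical monocytes and 12 of classical monocytes, none of which chose the non-classical cells. The comparison was with 42 CM and 126 TCM classical monocytes, taken as droplets with at least 3 UMIs and at least 2 genes of Ly6c2, Ccr2 and F13a1, a UMI of Lyz2 and none of Treml4, Cd300e or Adgre4, with other cell types excluded by their genes. Of the 24 genes, 23 were higher in the non-classical cells in each library, and 21 had intervals above 0 in both. Nr4a1 was 114 against 55.3 CP100k in CM and 86.7 against 39.2 in TCM. Itgal, the alpha chain of LFA-1, was 56.7 against 9.87 and 54.9 against 9.72, and Gngt2 was 125 against 9.87 and 91.8 against 6.06. Eno3, a muscle-type enolase, was 31.2 against 1.97 and 15.3 against 0.319, and Pglyrp1, a peptidoglycan-binding protein, was 83.1 against 5.92 and 47.6 against 5.90. The exceptions were Klf2 in CM (70.1 against 71.6) and Apoc2 in TCM (18.1 against 21.2). Cx3cr1, the fractalkine receptor, was 26.4 against 17.8 in CM with an interval that held 0 (-0.06 to 1.22), and 21.0 against 4.15 in TCM.

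Of the 12 classical genes, Ly6c2, Ccr2 and F13a1 chose the classical cells and had to be higher in them. Of the other 9, 7 were lower in the non-classical cells in both libraries with intervals below 0. Fn1, fibronectin, was 16.8 against 106 CP100k in CM and 33.4 against 197 in TCM. Plac8 (211 against 181) was the 1 gene on the other side in CM. At least 1 UMI of Nr4a1, Spn, Cx3cr1 or Csf1r was present in 61 of 63 CM and 47 of 50 TCM cells. The label therefore matched the data in both libraries.

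**Figure D1:**
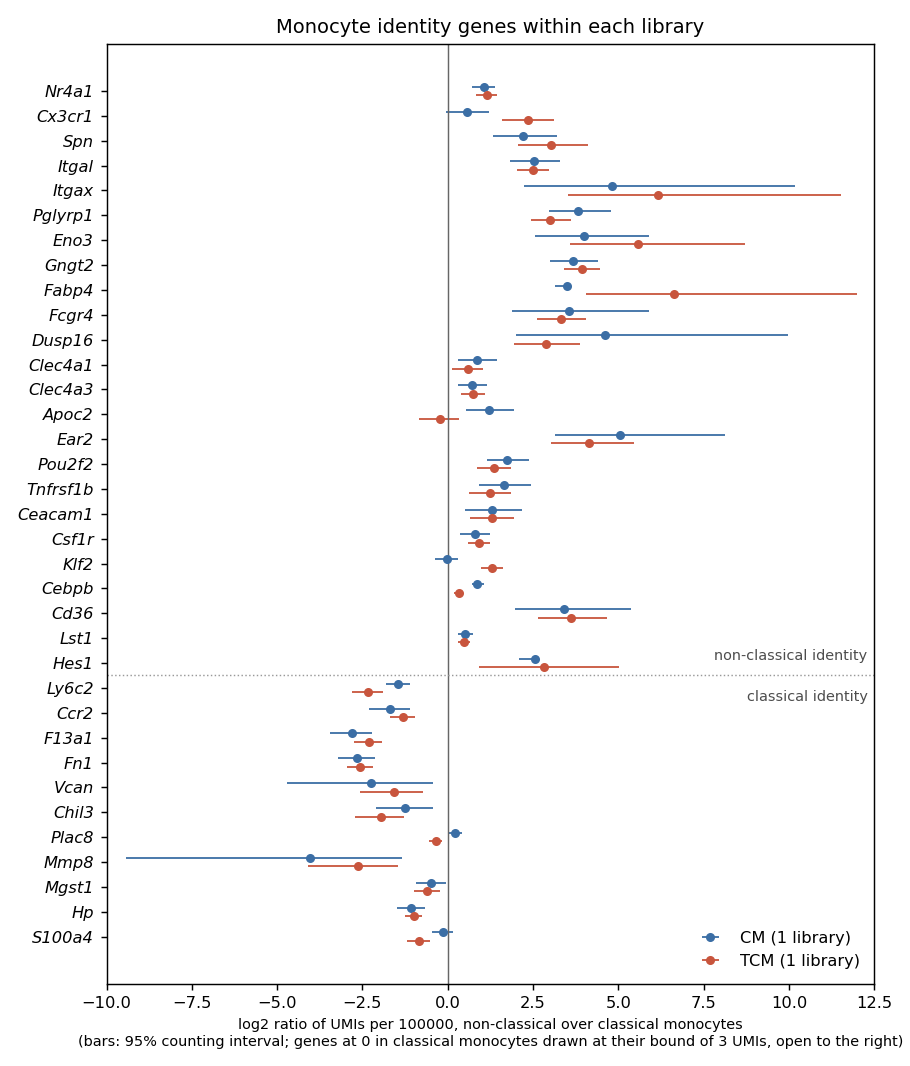
Log2 ratio of the level (UMIs per 100000) in non-classical over classical monocytes for 24 non-classical genes (above the dotted line) and 11 of the 12 classical genes (below it), CM in blue and TCM in red. Points are the ratios of summed UMIs of 1 library each and bars the 95% counting interval. Apart from Apoc2, Klf2 and Plac8, each in 1 library, the upper genes lie right of 0 and the lower genes left of it, as Ly6c2, Ccr2 and F13a1 had to by the choice of the classical cells.

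Shares of cells with a UMI are given below beside those of B and T cells of the same library, as types that mostly lack these genes, to show the level that free RNA can give. B cells were droplets with at least 3 UMIs and at least 2 genes of Cd79a, Cd79b and Ms4a1, T cells the same for Cd3e, Cd3d and Cd3g, both without UMIs of Treml4, Cd300e and Adgre4. Every cell was reduced at random to 1000 UMIs (thinning), and shallower cells were left out: 7 of 63 CM and 3 of 50 TCM non-classical cells, 114 and 69 B cells and 73 and 55 T cells. The median depth before thinning was 1942.5 UMIs for B and 2588 for T cells in CM, and 1875 and 2509 in TCM.

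The cells were not uniform. Classical genes were still present in part of them: 17 CM (27.0%, exact interval 16.6 to 39.7) and 21 TCM cells (42.0%, 28.2 to 56.8) had at least 2 UMIs summed over Ly6c2, Ccr2 and F13a1. Depth moved with this split, since these cells had medians of 5751 and 4798 UMIs and the others 2435 and 2500. In CM, the cells with at most 1 such UMI held Pglyrp1 at 138 CP100k against 17.0 in the rest, Eno3 at 51.8 against 6.36 and Spn at 43.9 against 12.7. In TCM the same genes stood at 76.6 against 27.1, 26.0 against 7.73 and 24.6 against 11.6. Thbs1, thrombospondin, went the other way, with 8.78 against 57.3 in CM and 12 against 106 in TCM. Pglyrp1, Eno3 and Spn thus lay on the opposite side from Thbs1 within both libraries.

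A few cells carried genes of another cell type. The neutrophil receptor gene Cxcr2 was present in 3 CM and 6 TCM cells. At least 3 UMIs of the complement genes C1qa, C1qb and C1qc, which mark interstitial macrophages, were found in 0 and 2 cells. At least 3 UMIs of the killer cell genes Nkg7 and Gzma were found in 1 and 0, and at least 3 of the plasmacytoid gene Siglech in 1 and 0. Altogether 5 of 63 CM and 8 of 50 TCM cells met one of these conditions. No doublet caller was run, and whether these droplets held 2 cells was not tested. Results that rest on them are given without them too.

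The share of non-classical monocytes was 0.789% of passing droplets in CM (63 of 7988, exact interval 0.607 to 1.01) and 0.649% in TCM (50 of 7707, 0.482 to 0.854). The ratio of shares was 0.823, and its interval held 1 (0.556 to 1.21). With neutrophils left out of the denominator the shares were 0.801% and 0.748%, as neutrophils made up 1.58% of CM and 13.3% of TCM droplets. Among droplets with a UMI of the leukocyte gene Ptprc the shares were 2.36% (56 of 2374) and 1.5% (45 of 2996), with a ratio of 0.637 and an interval below 1 (0.420 to 0.960). After every droplet was thinned to 1000 UMIs the rule found 23 and 24 cells, 0.395% in both. A difference in the number of non-classical monocytes was therefore not detectable at this depth, except with Ptprc droplets as the denominator.

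Classical monocytes moved otherwise. They made up 0.526% of CM and 1.63% of TCM droplets, a ratio of 3.11 (2.18 to 4.52) that lay wholly above the interval for the non-classical cells. Of all monocytes by either rule, 60% were non-classical in CM (63 of 105, 50 to 69.4) and 28.4% in TCM (50 of 176, 21.9 to 35.7). With 1 library per group, the treatment cannot be told apart from the animals and the preparation.

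**Figure D2:**
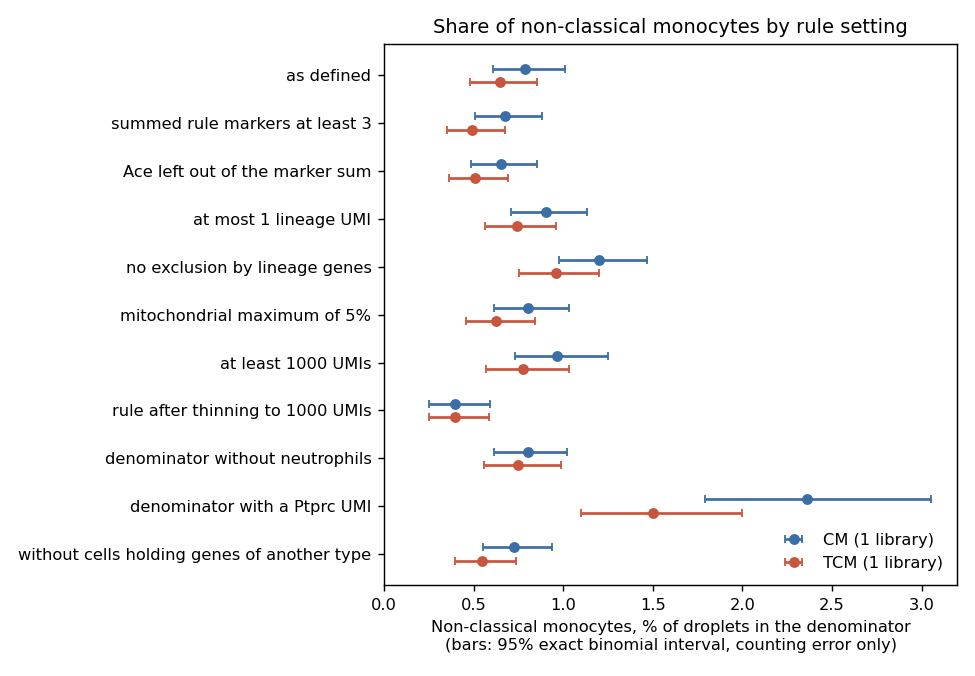
Non-classical monocytes as a percentage of the droplets in the denominator, for the rule as defined and 10 other settings, with 95% exact binomial bars (CM blue, TCM red, 1 library each). The bars of both libraries overlap in every setting, and the widest gap is among droplets with a Ptprc UMI, at 2.36% and 1.5%.

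To ask which genes of the non-classical cells differed after tumor conditioned media, 1936 genes with at least 30 UMIs over both libraries were compared. In TCM 66 of them were at least 2-fold higher (3.41%) and 53 at least 2-fold lower (2.74%), and the median ratio of all 1936 was -0.02. The interval excluded 0 for 60 and 46 of these. Among the largest rises seen in at least 10 cells were receptors (Ccr1, Lilr4b), MHC class II genes, S100a8 and S100a9, and among the largest falls were Arl5c, Glipr1, Rtp4, Birc3, Traf1 and Rnase6. For 9 of the 15 largest rises, however, 3 cells held over 60% of the TCM UMIs. With the 3 richest cells of each library removed gene by gene, the interval still excluded 0 for 14 of the 15 rises and 13 of the 15 falls.

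**Figure D3:**
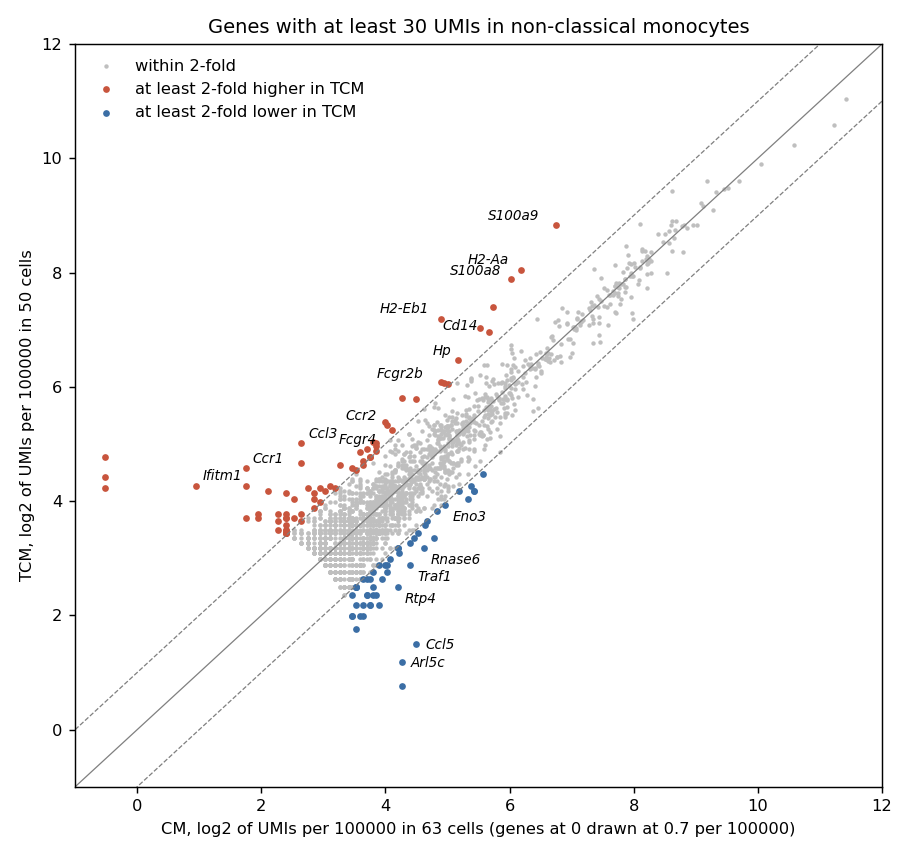
Level of 1936 genes in non-classical monocytes, as log2 of UMIs per 100000 summed over 63 CM cells (horizontal) and 50 TCM cells (vertical). Solid and dashed lines mark equality and 2-fold, red points are 66 genes at least 2-fold higher in TCM and blue points 53 at least 2-fold lower.

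Some genes of the list of Fc receptors and complement were higher in TCM. Of the 13 genes of that list, 8 could be compared, 4 were at least 2-fold higher and 0 lower, and the median ratio was 0.95 against -0.02 for all genes. Fcgr4 (ENSMUSG00000059089, chromosome 1, 171018920 to 171029761, plus strand) encodes the activating IgG receptor FcγRIV, the closest mouse relative of human CD16. It had 36 UMIs in 26 of 63 CM cells and 67 in 27 of 50 TCM cells, or 17.3 and 38.0 CP100k, a ratio of 1.13 (0.53 to 1.76). A cell held from 0 to 4 Fcgr4 UMIs in CM, median 0, and from 0 to 8 in TCM, median 1, so the cells of both libraries overlapped. The ratio lay between 1.02 and 1.46 under all 9 alternatives, including 1.46 (0.85 to 2.09) with a marker sum of at least 3 and 1.18 without the cells that held genes of another type. Fcgr4 was read in 0 of the B cells of either library and 1 UMI of it in the T cells of each.

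The inhibitory receptor gene Fcgr2b had 62 UMIs in 27 CM cells and 120 in 33 TCM cells (1.19, 0.74 to 1.66). C5ar1, the receptor of the complement fragment C5a, had 25 UMIs in 13 and 51 in 27 cells (1.27, 0.55 to 2.02). Both were thus seen in a larger share of the TCM cells. Among cells with at most 1 UMI of Ly6c2, Ccr2 and F13a1 the list median came to 0.31, with Fcgr4 at 1.24, Fcgr2b at 0.89 (-0.00 to 1.80) and C5ar1 at 0.64 (-0.33 to 1.61). The fourth gene, C1qa, had 33 UMIs in 2 TCM cells and 0 in CM, and without those 2 cells there was none. The common gamma chain Fcer1g, which carries the signal of the activating receptors, was at 831 and 687 UMIs with an interval around 0 (-0.04, -0.18 to 0.11).

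Several genes of classical monocytes were higher in the non-classical cells of TCM, but not the list as a whole. Of its 12 genes 9 could be compared, 3 were at least 2-fold higher and 0 lower, and the median was 0.24. Ccr2 (ENSMUSG00000049103, chromosome 9, 124101950 to 124113557, plus strand) had 34 UMIs in 18 CM cells and 71 in 21 TCM cells, or 16.3 and 40.2 CP100k (1.30, 0.69 to 1.93). Hp, haptoglobin, had 75 UMIs in 32 and 156 in 30 cells (1.29, 0.89 to 1.71), and F13a1 had 27 in 7 and 53 in 12 cells (1.21, 0.52 to 1.94), or 0.73 (-0.18 to 1.66) with a marker sum of at least 3. Ly6c2 went the other way, from 96 UMIs in 18 CM cells to 46 in 16 TCM cells (-0.82, -1.36 to -0.30), or -0.54 (-1.25 to 0.14) without its 3 richest cells, and so did S100a4 (182 and 87 UMIs, -0.83, -1.21 to -0.45). Among cells with at most 1 UMI of Ly6c2, Ccr2 and F13a1, a choice that itself bounds Ccr2, Hp was at 0.81 and Ccr2 at -0.10. After thinning, 7.14% of CM and 29.8% of TCM cells had a Ccr2 UMI (28.6% and 42.0% before), against 0.198% to 3.33% of B and T cells.

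Cd14, the co-receptor for bacterial lipopolysaccharide, was higher too. It had 106 UMIs in 21 of 63 CM cells and 219 in 33 of 50 TCM cells, or 50.9 and 124 CP100k (1.28, 0.94 to 1.63). A CM cell held 0 to 21 UMIs, median 0, and a TCM cell 0 to 31, median 1. After thinning 21.4% of CM and 38.3% of TCM cells had a Cd14 UMI (33.3% and 66.0% before), against at most 1.39% of B and T cells. The log2 ratio of Cd14 was 0.87 after thinning and 0.75 among cells with at most 1 UMI of the 3 classical genes. Of the 5 toll-like receptor and adaptor genes that could be compared, Cd14 was the 1 past 2-fold, and the list median was 0.38. Myd88, the shared adaptor, was at 19 and 21 UMIs.

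Genes of a chemokine receptor and an integrin chain were among the rises. Ccr1 (ENSMUSG00000025804, chromosome 9, 123962124 to 123968692, minus strand), a receptor for CCL3 and CCL5, had 7 UMIs in 3 CM cells and 42 in 16 TCM cells (2.82, 1.65 to 4.22). Itgb7, the beta 7 integrin chain, had 12 UMIs in 9 and 29 in 17 cells (1.51, 0.50 to 2.62), and was the only gene past 2-fold of 15 compared for adhesion and patrolling, whose median was -0.03. After thinning 7.14% of CM and 8.51% of TCM cells had an Itgb7 UMI (14.3% and 34.0% before), below the 9.82% to 11% of B cells and 23.4% to 24.7% of T cells, which use this integrin, and the log2 ratio of Itgb7 was 0.25. The LFA-1 genes that these cells use to crawl were alike: Itgal had 118 and 97 UMIs (-0.05, -0.45 to 0.35) and Itgb2 136 and 122 (0.08, -0.28 to 0.44). Ifitm1, an interferon-inducible membrane gene, had 4 UMIs in 4 CM cells and 34 in 12 TCM cells (3.33, 1.84 to 5.28), of which 3 cells held 64.7%. Cers6, a ceramide synthase, had 11 UMIs in 11 and 31 in 22 cells (1.73, 0.70 to 2.87), or 1.38 (-0.23 to 3.12) among cells with at most 1 UMI of the 3 classical genes. Lilr4b, a leukocyte immunoglobulin-like receptor, had 13 UMIs in 12 and 45 in 17 cells (2.03, 1.11 to 3.04).

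MHC class II genes present peptides to helper T cells and are low on most mouse monocytes. Of 5 genes compared 3 were at least 2-fold higher in TCM, with a list median of 1.67. H2-Aa (ENSMUSG00000036594, chromosome 17, 34282744 to 34287823, minus strand) had 152 UMIs in 17 CM cells and 468 in 16 TCM cells (1.86, 1.59 to 2.13). H2-Eb1 (ENSMUSG00000060586, chromosome 17, 34305867 to 34316674, plus strand) had 62 in 11 and 257 in 10 cells (2.29, 1.88 to 2.71), and H2-Ab1 had 111 in 16 and 299 in 16 cells (1.67, 1.35 to 1.99). The number of cells was thus alike at full depth and the UMIs sat in a few of them: 3 cells held 68.4% of the H2-Aa UMIs of TCM and 50% of those of CM, and the richest held 177 and 27. After thinning 14.3% of CM (8 of 56) and 31.9% of TCM cells (15 of 47) had an H2-Aa UMI (27.0% and 32.0% before). At least 10 H2-Aa UMIs were found in 8 of 50 TCM cells (16.0%, 7.17 to 29.1) and 5 of 63 CM cells (7.94%, 2.63 to 17.6). Without the 3 richest cells the ratio of H2-Aa was 1.29 (0.88 to 1.71), and without the cells that held genes of another type 1.81 (1.51 to 2.11). With a marker sum of at least 3 it was 1.25 (0.93 to 1.57). The list median was 1.01 without the 5% deepest cells. Ciita, the activator of these genes, had 3 and 2 UMIs, too few to compare.

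Promoters of this family share a Y box that the factor NF-Y binds, and the sequences of H2-Aa and H2-Eb1 are shown because both genes were over 2-fold higher. They are the 250 bases before the gene start in RefSeq's annotation of GRCm38.p6, on the strand of the gene, at chr17:34287824-34288073 for H2-Aa and chr17:34305617-34305866 for H2-Eb1. Capitals mark CTGATTGG, the core of the Y box, searched on both strands after the values were seen.
H2-Aa: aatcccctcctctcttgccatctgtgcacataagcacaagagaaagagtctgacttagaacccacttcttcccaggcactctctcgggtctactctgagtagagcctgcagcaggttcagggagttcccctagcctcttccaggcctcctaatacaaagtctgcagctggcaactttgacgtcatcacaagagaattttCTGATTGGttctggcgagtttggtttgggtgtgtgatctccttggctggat
H2-Eb1: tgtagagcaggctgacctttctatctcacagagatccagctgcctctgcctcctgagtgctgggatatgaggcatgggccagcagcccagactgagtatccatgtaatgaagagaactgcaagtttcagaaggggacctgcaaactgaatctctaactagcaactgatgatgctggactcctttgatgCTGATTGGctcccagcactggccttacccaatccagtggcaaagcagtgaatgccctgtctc
The motif began 51 bases before the start of H2-Aa and 62 before that of H2-Eb1. It was present in 3.83% of the 32851 promoter windows of the table, and the match is a description of these letters only.

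S100a8 and S100a9, which form the neutrophil protein calprotectin, were higher in TCM, in non-classical cells and in cells that do not make them. S100a9 (ENSMUSG00000056071) had 225 UMIs in 7 CM cells and 803 in 32 TCM cells (2.07, 1.86 to 2.29), and 3 cells held 98.2% and 87.7% of them. S100a8 had 135 UMIs in 9 and 421 in 18 cells (1.88, 1.6 to 2.17). Without the cells that held genes of another type, S100a9 had 4 UMIs in CM and 106 in TCM (5.05, 3.65 to 6.95). After thinning, 8.93% of CM and 36.2% of TCM cells had an S100a9 UMI (11.1% and 64.0% before), while B cells went from 2.18% to 29.0% and T cells from 1.57% to 24.4%. The exact interval of the TCM cells (22.7 to 51.5) held the B cell share, so detection could not be separated from that in cells that lack the gene. The ratio in B cells (3.24, 2.90 to 3.60) was larger than in all non-classical cells. It was smaller than in the non-classical cells without those that held genes of another type. S100a9 made up 96.0 CP100k of free RNA in CM and 437 in TCM. Neutrophil genes as a list had 479 UMIs in the non-classical cells of CM and 1387 in those of TCM, at most 265 and 632 of them in 1 cell, with 2 of its 12 genes at 0 in CM and 3 in TCM.

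Inflammatory chemokine genes were higher in TCM in part. Of 7 genes compared 3 were at least 2-fold higher and 1 lower, with a median of 0.63. Ccl3 had 13 UMIs in 7 CM and 57 in 10 TCM cells (2.37, 1.48 to 3.36), with 73.7% of the latter in 3 cells. Among cells with at most 1 UMI of the 3 classical genes it had 9 and 8 UMIs (0.47, -1.10 to 2.02). Ccl9 had 29 in 19 and 58 in 20 cells (1.24, 0.57 to 1.93), but -0.62 among cells with at most 1 UMI of the 3 classical genes, and the cytokine gene Osm 15 in 8 and 26 in 13 cells (1.03, 0.06 to 2.05), or 1.04 (-0.56 to 2.79) without its 3 richest cells. Ccl5 was lower (47 and 5 UMIs, -2.99, -4.68 to -1.67), but 95.7% of its CM UMIs lay in 3 cells, and without cells that held genes of another type it stood at 5 in each library (0.32, -1.80 to 2.44). Il1b was alike at 322 and 293 UMIs (0.10, -0.13 to 0.33).

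**Figure D4:**
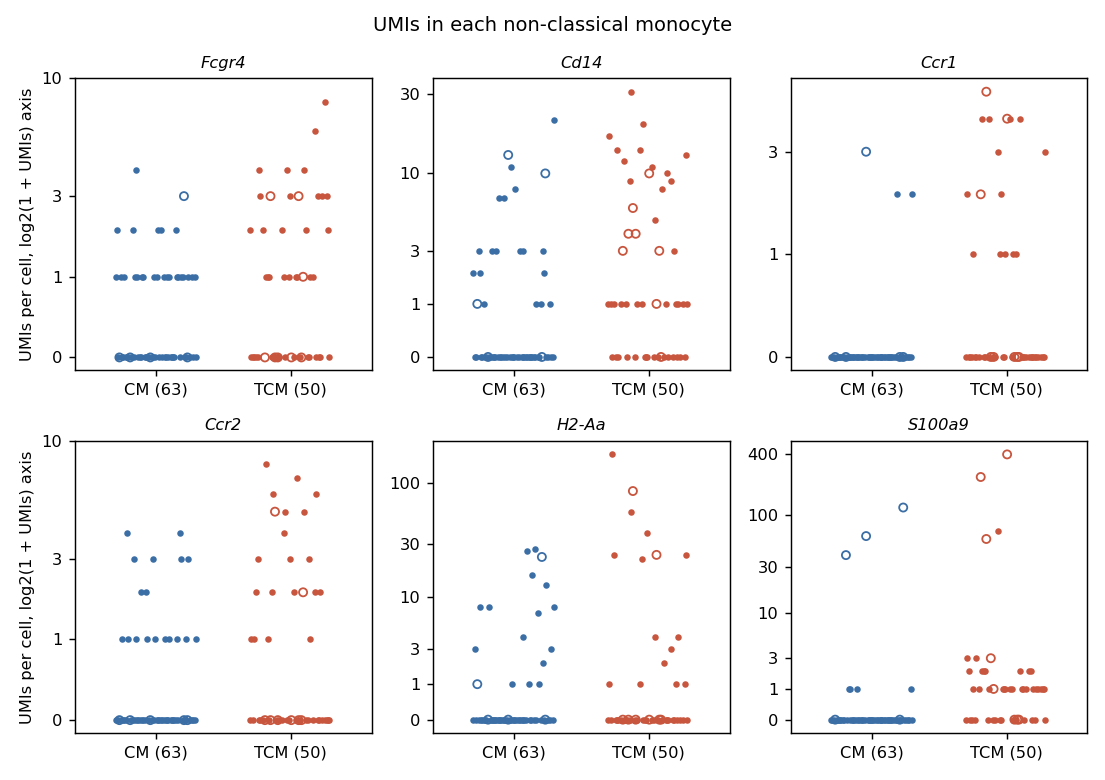
UMIs of 6 genes in each of the 63 CM and 50 TCM non-classical monocytes, on a log2(1 + UMIs) axis. Open circles are the 5 CM and 8 TCM cells that held genes of another cell type. Fcgr4, Cd14, Ccr1 and Ccr2 are spread over many TCM cells, while most UMIs of H2-Aa and S100a9 lie in a few cells with up to 177 and 397 UMIs. S100a9 is nonetheless found in 32 TCM cells, mostly at low counts.

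Genes that were lower in TCM had modest counts but came from many CM cells. Arl5c (ENSMUSG00000038352, chromosome 11, 97989578 to 97996181, minus strand), a small GTPase of the ARF family, had 40 UMIs in 25 of 63 CM cells and 4 in 3 of 50 TCM cells, or 19.2 and 2.27 CP100k (-3.08, -5.03 to -1.62). After thinning 8 of 56 CM cells had an Arl5c UMI and 0 of 47 TCM cells, which allows a share of up to 7.55%. Rnase6, an antimicrobial ribonuclease, had 51 UMIs in 31 and 16 in 12 cells (-1.43, -2.34 to -0.60). Glipr1 had 31 in 21 and 8 in 6 cells (-1.72, -3.05 to -0.56). Arl5c, Rnase6 and Glipr1 stayed below 0 under the alternatives tried, but after thinning the log2 ratio of Rnase6 was -0.48 and the log2 ratio of Arl5c, with TCM set to the floor of 3 counts, was -1.48.

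Genes of the NF-κB pathway were among the falls. Traf1, a signalling adaptor below TNF receptors, had 44 UMIs in 25 CM and 13 in 11 TCM cells (-1.52, -2.54 to -0.60). Birc3, an inhibitor of apoptosis, had 26 in 19 and 7 in 5 cells (-1.66, -3.10 to -0.41), and the NF-κB subunit gene Rel had 100 in 35 and 53 in 30 cells (-0.68, -1.19 to -0.18). With a marker sum of at least 3, Traf1 was at -0.91 (-1.94 to 0.04) and Birc3 at -0.98 (-2.46 to 0.31). Of the 7 genes compared in the list of NF-κB feedback genes, however, Birc3 alone was past 2-fold. The list median of -0.53 moved to 0.18 with a marker sum of at least 3, so the direction of the list was not stable. In that setting 1578 genes rather than 1936 could be compared, and Birc3 had 21 and 7 UMIs. Whether the cells at the edge of the rule or the change of genes moved the median was not tested. Nfkbia had 190 and 134 UMIs (-0.27, -0.60 to 0.06).

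Interferon-stimulated genes were mixed. Of 13 genes compared 0 were at least 2-fold higher and 2 lower, with a median of -0.08. Rtp4 had 38 UMIs in 16 CM and 10 in 6 TCM cells (-1.69, -2.86 to -0.66), but -0.68 (-2.34 to 0.77) among cells with at most 1 UMI of the 3 classical genes. Bst2, tetherin, had 59 in 21 and 25 in 17 cells (-1.0, -1.74 to -0.30), with 59.3% of the CM UMIs in 3 cells, and without cells that held genes of another type it stood at -0.09. Isg15 was at 31 and 40 UMIs (0.61, -0.11 to 1.33).

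The genes that define non-classical monocytes tended lower in TCM under the rule as defined, but not with a marker sum of at least 3. Of 23 compared, 18 had a ratio below 0 and 8 an interval below 0, with a median of -0.26. Nr4a1 had 238 UMIs in 51 CM cells and 153 in 38 TCM cells (-0.40, -0.70 to -0.10), Pglyrp1 173 in 45 and 84 in 23 (-0.80, -1.20 to -0.42), Spn 62 in 32 and 30 in 18 (-0.81, -1.49 to -0.16) and Eno3 65 in 31 and 27 in 16 (-1.03, -1.73 to -0.36). The 5 above 0 were Fcgr4, the 1 with an interval above 0, and Dusp16 (0.55), Csf1r (0.20), Klf2 (0.15) and Cd36 (0.14), whose intervals held 0. With a marker sum of at least 3, however, 12 of the 23 were below 0 and 1 had an interval below 0, Pglyrp1 (-0.49, -0.91 to -0.09), while Nr4a1 came to -0.09 (-0.42 to 0.24), Spn to -0.42 (-1.10 to 0.23) and Eno3 to -0.50 (-1.22 to 0.18). Cells at a marker sum of exactly 2 made up 9 of 63 CM and 12 of 50 TCM cells. Among cells with at most 1 UMI of the 3 classical genes, Pglyrp1 (-0.85, -1.31 to -0.40), Eno3 (-0.99, -1.82 to -0.23) and Spn (-0.83, -1.70 to -0.03) stayed below 0. Nr4a1 came to -0.18 (-0.57 to 0.20) there. Without the cells that held genes of another type, the intervals of Nr4a1, Pglyrp1, Spn and Eno3 all lay below 0.

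**Figure D5:**
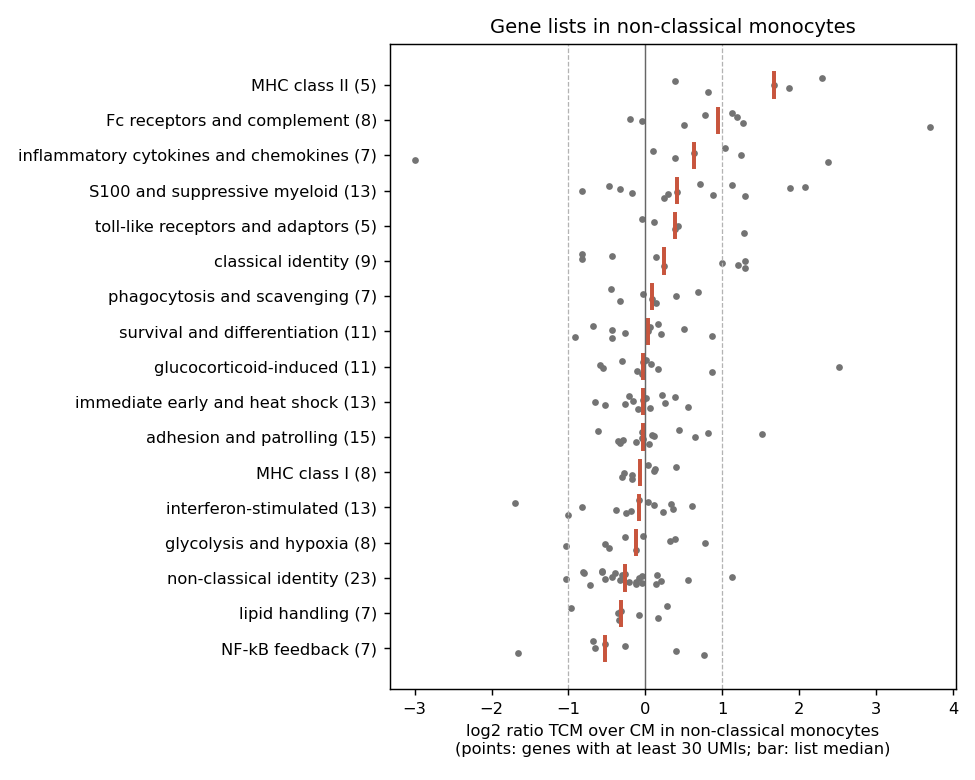
Log2 ratio of TCM over CM in non-classical monocytes for 17 gene lists, with the number of genes compared in brackets. Points are genes with at least 30 UMIs, red bars the list medians and dashed lines 2-fold. Medians run from -0.53 for NF-κB feedback to 1.67 for MHC class II.

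Lipid handling genes were looked at because the study is about fatty acids in the lung before metastasis. Of 20 genes 7 could be compared, none was past 2-fold, and the median was -0.32. Apoe, apolipoprotein E, had 758 and 724 UMIs (0.17, 0.02 to 0.32) and turned to -0.35 without the cells that held genes of another type. Alox5ap, which serves leukotriene synthesis, had 363 and 244 (-0.34, -0.58 to -0.10). Plin2, a coat protein of lipid droplets, had 93 UMIs in 43 and 96 in 33 cells (0.28, -0.14 to 0.71) and Fabp4 35 and 28 (-0.08, -0.86 to 0.67). Cd36, a fatty acid receptor gene from the scavenging list, had 44 and 41 (0.14, -0.51 to 0.78).

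MHC class I genes had a median of -0.07 over 8 genes, glycolysis and hypoxia genes -0.14 over 8, with Eno3 past 2-fold lower, and immediate early and heat shock genes, which cell dissociation can induce, -0.03 over 13. Among the last, Fos was at 360 and 212 UMIs (-0.53, -0.78 to -0.28) and Hspa8 at 448 and 340 (-0.16, -0.37 to 0.05). Glucocorticoid-induced genes had a median of -0.03 over 11, with Mt1, a metallothionein, past 2-fold (7 UMIs in 5 and 34 in 9 cells, 2.52, 1.32 to 3.94). In the list of S100 and suppressive myeloid genes 4 of 13 were at least 2-fold higher, S100a8, S100a9, Thbs1 and Clec4d, with a median of 0.41 against -0.02 for all genes. Thbs1 was at 0.49 (-0.99 to 1.94) among cells with at most 1 UMI of the 3 classical genes, and the interval of Clec4d held 0 without its 3 richest cells (1.68, -0.12 to 3.80). Of the circadian clock genes, Per1 (18 and 16 UMIs) and Bhlhe40 (17 and 13) were the ones that could be compared.

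For several of the genes that were higher in TCM no difference from classical monocytes could be shown. In classical monocytes Cd14 went from 162 to 1040 UMIs, a ratio of 1.05, and the difference between the ratios of both cell types was 0.23 with an interval that held 0 (-0.18 to 0.64). The same was true of Fcgr2b (difference 0.16, -0.43 to 0.75), Hp (0.09, -0.38 to 0.55), Ccr1 (0.20, -1.23 to 1.63), C5ar1 (-0.27, -1.38 to 0.83) and Ifitm1 (0.02, -2.22 to 2.25). B cells also had ratios above 0 for Hp (1.28, 0.64 to 1.92), Ccr1 (3.02, 1.13 to 5.48), Ifitm1 (3.63, 2.98 to 4.35) and Cd14 (1.75, 0.15 to 3.50). In T cells the interval lay above 0 for Hp (0.96, 0.32 to 1.61) and held 0 for Ccr1, Ifitm1 and Cd14. What these ratios in B and T cells came from was not tested. For Fcgr4, with 3 and 24 UMIs in classical cells, the interval was too wide to tell (-0.24, -2.06 to 1.59). Nr4a1 was lower in classical monocytes as well (-0.50, -0.82 to -0.16), in B cells (-0.33, -0.61 to -0.06) and in T cells (-0.36, -0.68 to -0.05). In neutrophils it was lower by more (-1.97, -2.18 to -1.76), and in interstitial macrophages it was level (0.01, -0.39 to 0.40).

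With all cells at full depth, other genes did differ from classical monocytes beyond counting error. Itgb7 had a ratio of -0.07 in classical cells, a difference of 1.58 (0.47 to 2.69). After thinning, however, 7.14% of CM and 8.51% of TCM non-classical cells had an Itgb7 UMI, so this difference depends on depth. Ccl3 had 0.71 in classical cells, a difference of 1.66 (0.46 to 2.86) that rests on few cells, as given above. S100a4 stood at -0.13 in classical cells, a difference of -0.70 (-1.14 to -0.26). Some identity genes differed too. Cx3cr1 was at -2.10 in classical cells (difference 1.77, 0.82 to 2.71) and Klf2 at -1.17 (1.32, 0.86 to 1.78). Apoc2 was at 0.72 in them (difference -1.44, -2.30 to -0.58). Thbs1 rose more in classical cells (2.03, difference -0.90, -1.42 to -0.37). Ly6c2, Ccr2 and F13a1 were not compared, since they chose the classical cells. Birc3 stood at -0.05 in classical cells, a difference of -1.61 (-3.10 to -0.12). With a marker sum of at least 3, its ratio in the non-classical cells was -0.98 (-2.46 to 0.31). Arl5c was lower in both (-1.40 in classical cells), and the difference of -1.69 did not clear 0 (-3.44 to 0.06), whereas it did against B cells (-2.62, -4.19 to -1.05) and T cells (-2.97, -4.49 to -1.44). Rnase6 was lower in both by about the same (difference 0.28, -0.78 to 1.33). Traf1 was lower in classical cells too, on 5 and 2 UMIs (-2.95, -6.35 to -0.34), and the difference held 0 (1.43, -1.10 to 3.96). It was also lower in neutrophils (-1.17, -1.95 to -0.31), but higher in B cells (1.12, 0.32 to 1.91). In T cells its interval held 0 (0.09, -0.28 to 0.47). The opposite course of H2-Aa in classical monocytes, from 473 to 96 UMIs, was not used, because 7 of 42 CM classical droplets had at least 10 H2-Aa UMIs against 2 of 126 in TCM. The other differences from classical monocytes rest on the same droplets. How far this uneven make-up moved them was not tested.

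RNA of some other cell types, such as club and alveolar epithelial cells, was higher in the TCM cells, while B cell and T and NK cell genes were lower. From 7 club and erythroid genes, the free RNA was put at 122 UMIs per cell in CM and 267 in TCM, 3.69% and 7.57% of the UMIs, an estimate that rests on the club genes, since 0 UMIs of erythroid genes were found in either. The surfactant gene Sftpc had 96 UMIs in 49 CM cells and 229 in 48 TCM cells (1.49, 1.14 to 1.85), and alveolar epithelial genes summed to 193 and 354 UMIs with 4 of 10 and 1 of 10 at 0. B cell genes had 34 and 15 UMIs, endothelial genes 68 and 74, dendritic cell genes 7 and 14 and platelet genes 2 and 6. T and NK cell genes summed to 70 and 10 UMIs, 63 of them in 1 CM cell. Alveolar macrophage genes had 26 and 40 UMIs, and fibroblast and mural genes 33 and 31. With free RNA subtracted, the ratios of Cd14 (1.31), Fcgr4 (1.18) and Fcgr2b (1.24) were close to those above.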

How the data were processed

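Whole-lung cells were captured with a 5-prime droplet kit (10x Genomics), and the authors mapped the reads to mm10 (GRCm38.p6) with Cell Ranger 4, per the file headers and the study's methods. The deposited matrices hold raw UMI counts per gene and barcode for 32286 features and 737280 barcodes, 31944151 UMIs in CM and 36648719 in TCM. Droplets with at least 500 UMIs, at least 200 genes and at most 10% mitochondrial UMIs were kept, the limits of the study's methods, which left 7988 and 7707. Groups came from the treatment label. The cells, gene lists and named genes were chosen with earlier results of these data known. Named genes were the 4 rule markers, the identity genes, the 15 largest rises and falls with at least 30 UMIs over both libraries, at least 10 cells with a UMI in the higher library and an interval that excludes 0, and for each list the genes past 2-fold or else the 2 with the most UMIs. Other genes in the text were picked after their values were seen. A sum of 0 was set to 3 counts. Shares have Clopper-Pearson intervals, and differences between cell types a normal approximation on log counts. No doublet caller was run. UMIs are not replicates, so intervals cover counting error only. Gene positions are from GENCODE vM21, which held 32158 of the identifiers. Scripts were tested on simulated data and ran in Python 3.11.15 with numpy 2.4.6, scipy 1.17.1 and pandas 2.3.3. An added CD90.1 sequence had 0 UMIs in the cells. Results for some genes are not reported here.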

Additional observations from a re-analysis of the deposited data

How the results depend on the processing

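No paired analysis was possible because each group had 1 library, which also leaves no replicate to leave out. Of the 10 alternatives for the share of cells, all stayed within the interval of the ratio, from 0.637 to 0.999. The counts of genes at least 2-fold higher and lower moved by over 1.5 times under 4 settings: 29 and 15 with at least 60 UMIs, 396 and 376 with at least 10, 23 and 14 after thinning to 1000 UMIs, and 37 and 33 with at most 1 UMI of Ly6c2, Ccr2 and F13a1, in which fewer or more genes could be compared. Of 136 alternative list medians, 131 stayed within the range set by the genes' intervals. The others were MHC class II (1.25 with a marker sum of at least 3, 1.01 without the 5% deepest cells, 1.31 as a mean over cells), Fc receptors and complement (0.31 with at most 1 UMI of the 3 classical genes) and NF-κB feedback (0.18 with a marker sum of at least 3). For named genes 715 of 790 values stayed within the main interval, and 10 turned in sign among genes whose main interval excluded 0 (turns of genes near 0 were not counted). These were Apoe (-0.07 with a marker sum of at least 3, -0.35 without cells that held genes of another type, -0.59 with at most 1 UMI of the 3 classical genes, -0.01 without its 3 richest cells), Ccr2 (-0.10), Ccl9 (-0.62) and Bst2 (0.18) with at most 1 UMI of the 3 classical genes, Ccl5 (0.32) without cells that held genes of another type, and Alox5ap (0.05) and H2-D1 (0.18) after thinning. Leaving out cells with genes of another type, the split by classical genes and the removal of the 3 richest cells were chosen after seeing the data. Except where a setting changes the number of genes compared, the cause was not tested. Genes under 30 UMIs could not be compared at this depth.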

Other observations

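Survival genes of the non-classical cells were close to level, with a median of 0.03 over 11 genes. Bcl2a1d, an anti-apoptotic gene of myeloid cells, had 42 UMIs in 26 CM and 19 in 13 TCM cells (-0.91, -1.77 to -0.09), while Mcl1 had 70 in 42 and 84 in 34 (0.50, 0.03 to 0.98) and Cebpd, a myeloid transcription factor, 29 in 19 and 45 in 24 (0.87, 0.17 to 1.6). Among genes too low for the comparison, Tlr4, the lipopolysaccharide receptor that works with Cd14, had 0 UMIs in CM and 11 in 7 TCM cells, and Ccl2, the ligand of Ccr2, 1 UMI in CM and 19 in 4 TCM cells. These genes were picked after their values were seen.

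Of the scavenging genes, 7 of 17 could be compared, with a median of 0.09. Tyrobp, an adaptor of myeloid receptors, had 928 UMIs in 61 CM and 578 in 49 TCM cells (-0.45, -0.60 to -0.29), a difference of -0.22 (-0.41 to -0.04) from classical monocytes. Mrc1, with 13 UMIs, and Cd163, with 9, were each found in 1 TCM cell and at 0 in CM.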
